A study of Mus musculus with 18 samples.

Results

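Mast cells grown from mouse bone marrow (BMMC) of 2 genotypes were compared, by RNA-seq, in their response from level 0 to level 60. For each gene the change from 0 to 60 in WT cells was subtracted from the change in KO cells, giving a double difference on the log2 scale that is above 0 where the KO response was the more positive. The comparison was between 12 of the 18 libraries of the series, 3 in each of 4 groups (WT at 0, WT at 60, KO at 0 and KO at 60). The filter on low counts, the scaling and edgeR's estimate of spread took all 18. The double difference was taken from group means and within each of the numbers 4120, 414 and 6110 that head the library names. WT cells carried Sirt6 flox/flox, and KO cells carried Sirt6 flox/flox with LysM-Cre, a Cre recombinase expressed from the lysozyme M gene (Lyz2), which is active in myeloid cells. The floxed allele was thus shared by all groups. The labels name LPS as the treatment at levels 20 and 60 and none at 0, give no unit for the level, and do not say what the 3 numbers mark, while the series title names FcεRI, the high affinity IgE receptor. Whether the libraries of a group came from separate mice is not given, so p-values measure the spread between these libraries, which may in part be technical.

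Mast cells are tissue-resident immune cells that store histamine and proteases in granules. Crosslinking of FcεRI by IgE and antigen activates the kinases Lyn and Syk, and LPS signals through TLR4 and its adaptors, and both routes lead to MAP kinases and NF-kB. These pathways first raise immediate early transcription factors, and then cytokines and chemokines, along with inhibitors that switch the pathways off again. Sirt6 is a nuclear NAD-dependent deacetylase known to act on chromatin and to repress genes driven by NF-kB.

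Total counts ran from 20026054 to 42265435 per library, and 17159 of 45777 genes passed the filter on low counts. The mast cell markers were high in every group, with a summed level of 23955 to 56362 CPM (counts per 1000000 on TMM-scaled library sizes). Sirt6, the targeted gene, was not lower in KO: its levels were 12, 14.9 and 16.8 CPM in WT at 0, 18.7, 13.7 and 17.7 CPM in KO at 0, 9.73, 10.7 and 11.8 CPM in WT at 60 and 10.4, 11.2 and 13.7 CPM in KO at 60, in the order 4120, 414 and 6110 that is used throughout. These counts cover the whole gene and do not show which exons were present, so WT and KO below stand for the libraries labelled so. Lyz2, whose locus holds the Cre in KO, was at 0.772 to 3.69 CPM in the 6 WT libraries and at 0 to 0.249 CPM in the 6 KO libraries. The share of counts in 37 mitochondrially encoded genes ranged from 4.09% to 41.9% over the 12 libraries. Its own double difference, on the log2 scale, was 0.96, -0.89 and -0.44 in the 3 numbers.

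No gene passed the test of the double difference from group means. Of 17159 genes, 0 (0%) had a Benjamini-Hochberg adjusted p under 0.05 in edgeR's quasi-likelihood test, where the smallest adjusted p was 0.711, for Tagap1, and 0.99992 for each other gene named here. An unadjusted p under 0.05 was found for 188 genes (1.1%), 105 of them with a higher (0.612%) and 83 with a lower KO response (0.484%). DESeq2 called 2 of 17132 genes (0.0117%), Tagap1 and Got1. Within numbers, limma on the 3 double differences of each gene called 14 of 17159 genes (0.0816%), all with a higher KO response: Tnf, Ccl7, Tagap1, Ccl3, Ccl4, Il13, Nr4a1, Nfkbid, Atf3, Ccl1, Trib1, LOC105244150, Rcan1 and Egr2. Trib1 and LOC105244150 were named after their values were seen. That limma test takes libraries of the same number as pairs, which the labels do not state, and each limma p below is from it. It has 2 residual degrees of freedom per gene and borrows the spread from genes of like level. With a single prior spread for all genes it called 0 (1068 at an unadjusted p under 0.05). With 1 number left out it called 34 without 4120 (24 higher and 10 lower), 17 without 414 (15 and 2) and 34 without 6110 (31 and 3), which held 14, 12 and 13 of the 14. With scaling by library size alone it called 57, 32 with a higher and 25 with a lower KO response, and these held all 14.

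The responses of the single genotypes differed in how many genes passed. In WT, 38 genes (0.221%) passed the edgeR test between 60 and 0, with 34 higher (0.198%) and 4 lower (0.0233%) at 60. In KO 436 genes (2.54%) passed, with 341 higher (1.99%) and 95 lower (0.554%). A fit of the 12 libraries alone called 0 in WT and 220 in KO, of 16647 genes tested. Such counts do not test the difference between genotypes. On the mean of both responses, 1061 genes (6.18%) passed, 677 higher (3.95%) and 384 lower (2.24%) at 60. This mean adds the responses where the double difference subtracts them, but it rests on the same libraries, so the double differences of these genes are given as a description.

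Of the 677 genes that rose in the mean response, 579 had a double difference above 0, against 52.4% of all genes tested. Their median double difference was 0.41, against 0.02 for all genes tested. Their median response was 0.81, 0.78 and 0.93 in WT and 1.33, 1.09 and 1.12 in KO. The KO response minus the WT response was 0.52, 0.31 and 0.19 within the numbers. So the median KO response was the higher one in each number, least in 6110. All 3 KO responses lay above all 3 WT responses in 189 of these genes (27.9%) and below them in 3, where 4.42% of all genes tested lay above and 4.41% below. In the same genes the median log2 difference of KO from WT was -0.02 at 0 and 0.36 at 60. Scaling by library size alone moved the median double difference of all genes to -0.12 and left 87 of the 677 with all KO responses above, against 1.66% of all genes tested. With the mitochondrial share as a covariate the median of the 677 was 0.38. Among the 69 genes that rose by at least 2 on the log2 scale in the mean response and reached 5 CPM in a group, 67 had a double difference above 0, the median was 1.19, and 43 had all KO responses above all WT responses.

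The 384 genes that fell in the mean response fell a little further in KO at the median, -0.85 against -0.63 in WT. Their median double difference was -0.18, with 83 above 0 and 301 below, where 52.4% of all genes tested were above 0. All 3 KO responses lay below all 3 WT responses in 72 of them (18.8%) and above them in 3. Of all genes tested 4.41% lay below and 4.42% above. Within numbers the difference between the median responses of KO and WT was -0.29, -0.11 and -0.21.

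**Figure D1:**
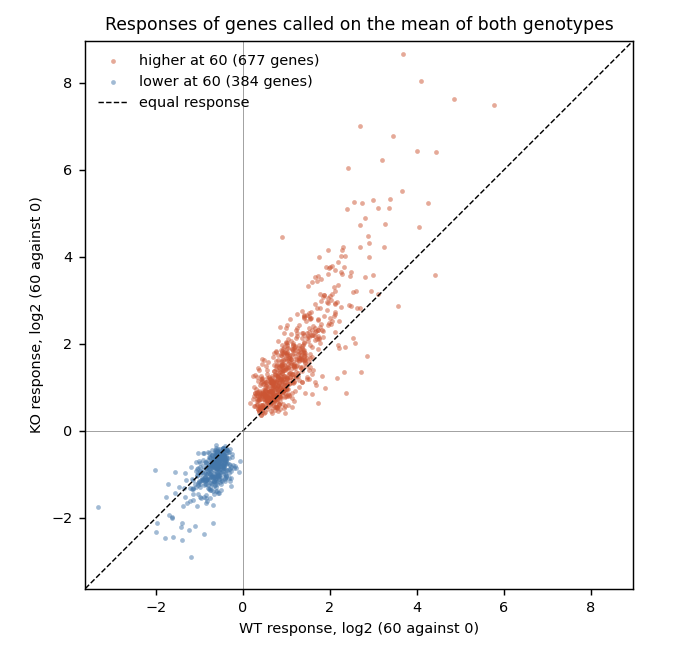
Each point is a gene called on the mean response of both genotypes (677 higher at 60, 384 lower), with the WT response on the x axis and the KO response on the y axis, both as log2 fold change of 60 against 0 from edgeR group means. The genes with the steepest rise lie mostly above the dashed line of equal response.

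Cytokines and chemokines, the secreted signals that recruit and activate other leukocytes, had the highest median double difference of the 33 lists. Of 26 members 19 passed the filter on low counts, which can keep a gene for the group in which it is high. Of these 16 had a double difference above 0, with a median of 1.78, which was 1.33 without 4120. The median KO response minus the median WT response was 1.15, 1.30 and 0.53 within the numbers, least in 6110. All KO responses lay above all WT responses in 12, against 4.42% of all genes tested. The edgeR test between 60 and 0 called 11 of the 19 higher in KO and 1 in WT. Of all genes tested it called 1.99% higher in KO and 0.198% in WT. The median response of the list at 60 was 1.10, 0.56 and 1.21 in WT and 2.25, 1.86 and 1.74 in KO. At level 20, which is read against the same libraries at 0, it was 2.73, 3.48 and 1.95 in WT and 3.33, 3.42 and 2.03 in KO.

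Tnf encodes a cytokine that activates endothelium and leukocytes. Its level at 0 was 4.37, 4.26 and 10.7 CPM in WT and 3.11, 1.87 and 3.63 CPM in KO. At 60 it was 19.4, 14.5 and 68.5 CPM in WT and 95.1, 77.3 and 125 CPM in KO. Each KO library was thus below its WT counterpart at 0 and above it at 60, and at 60 the genotypes did not overlap. The response on the log2(CPM + 0.5) scale was 2.03, 1.66 and 2.62 in WT and 4.73, 5.04 and 4.92 in KO, and the double difference was 2.70, 3.38 and 2.31, with a mean of 2.79 ± 0.54 (SD, n = 3). From group means it was 2.70 ± 0.78 (SE), with an unadjusted p of 0.00317 and an adjusted p of 0.99992 in edgeR. Within numbers limma gave an adjusted p of 0.00335.

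Ccl7, a chemokine for monocytes, had levels at 0 of 18.3, 4.56 and 20.0 CPM in WT and 7.74, 7.07 and 8.67 CPM in KO. The levels at 60 were 85.3, 29.5 and 135 CPM in WT and 364, 242 and 298 CPM in KO, so that the lowest KO library stood above the highest WT library. The double differences were 3.27, 2.44 and 2.30, and the group-mean value was 2.72 ± 0.69 (SE), with an adjusted p of 0.00335 in limma within numbers. Ccl3, an inflammatory chemokine, was at 21.0, 24.0 and 28.4 CPM in WT and 30.5, 30.2 and 16.6 CPM in KO at 0. At 60 it was at 79.0, 33.1 and 130.4 CPM in WT and 411, 234 and 269 CPM in KO. The WT level of 414 changed little, and no WT library reached the KO range at 60. The double differences of Ccl3 were 1.84, 2.47 and 1.80. Ccl4, its neighbour, has an annotated span that overlaps that of Ccl3, and since the strand of the counting is not stated their reads may be shared. It had double differences of 2.04, 2.83 and 1.74, though its KO and WT responses overlapped.

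Il6, an inflammatory interleukin, was at 9.16, 5.57 and 6.95 CPM in WT and 7.48, 9.02 and 7.69 CPM in KO at 0. Its levels at 60 were 27.1, 17.2 and 41.5 CPM in WT and 132, 99.5 and 98.2 CPM in KO, with every KO library above every WT library. The genotypes overlapped at 0. The Il6 double differences were 2.53, 1.85 and 1.10, and limma within numbers gave an adjusted p of 0.0534, over the threshold. Il6 overlaps the annotated transcript A230098N10Rik. Il13, a type 2 interleukin made by mast cells, was under 1 CPM in all 6 libraries at 0. At 60 it was at 5.15, 1.22 and 15.3 CPM in WT and 64.5, 23.9 and 54.6 CPM in KO. Both genotypes rose (adjusted p in edgeR 0.0280 in WT and 0.000356 in KO), and the double differences were 3.29, 3.0 and 1.85.

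Ccl1, a chemokine for CCR8, had double differences of 2.95, 2.87 and 1.35, and at 60 its levels of 14.7, 35.1 and 248 CPM in WT and 61.8, 223 and 157 CPM in KO overlapped. Ccl2, a monocyte chemokine already at 97.9 to 277 CPM at 0, responded by 0.38, 0.56 and 0.45 in WT and 1.90, 1.86 and 1.23 in KO. Il4, the interleukin that drives IgE switching, had the narrowest spread of double differences among these genes, 0.66, 0.62 and 0.69, and its response passed the test in neither genotype. Csf2, which encodes GM-CSF, was near or at 0 in all libraries at 0 and stayed under 1.5 CPM at 60, so its fitted double difference of 3.95 rests on few counts.

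**Figure D2:**
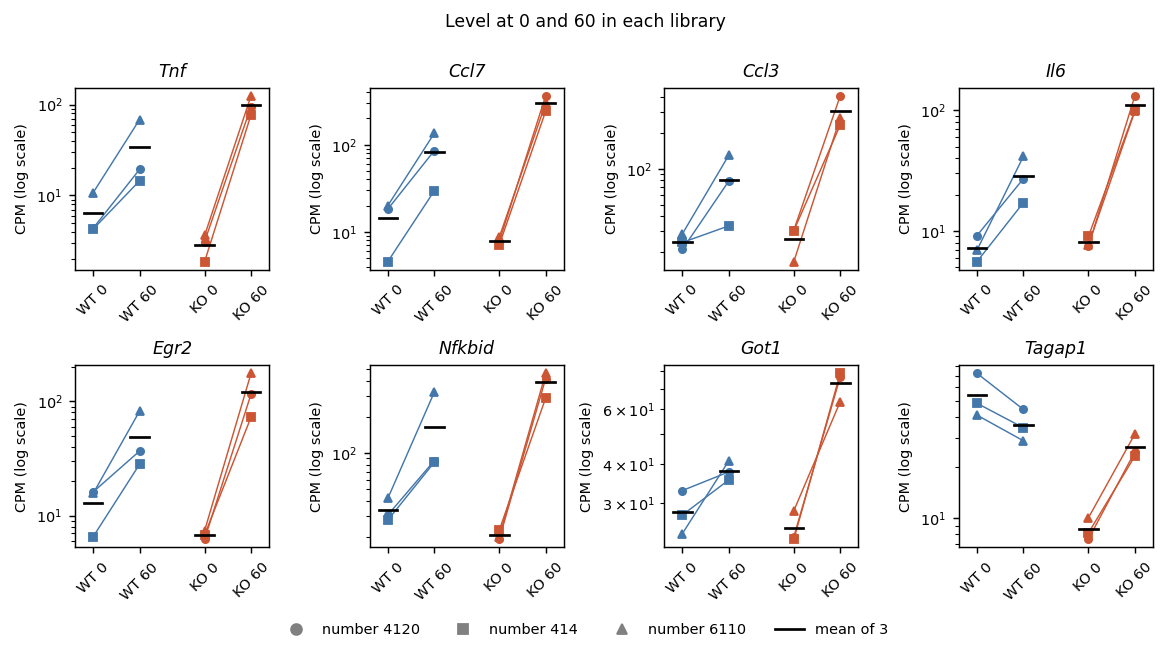
CPM on a log axis at 0 and at 60 in WT (blue) and KO (red), with 1 line per number and black bars for the mean of 3 libraries. For Tnf, Ccl7, Ccl3, Il6 and Got1 the KO libraries at 60 lie above the WT libraries at 60, while the Tagap1 lines fall in WT and climb in KO from a lower level.

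The genes of the immediate early transcription factors are switched on by existing regulators within minutes of a signal. Of 31 genes in the list, all of which passed the filter, 25 had a double difference above 0, with a median of 0.80, and 14 had all KO responses above all WT responses (4.42% of all genes tested did). The edgeR test between 60 and 0 called 13 of the 31 higher in KO and 2 in WT. The shares of all genes tested were 1.99% and 0.198%. The median response of the list was 1.16, 0.63 and 0.99 in WT and 1.5, 1.46 and 1.67 in KO at 60, and 2.42, 3.10 and 1.85 in WT and 2.46, 2.78 and 1.83 in KO at 20, read against the same libraries at 0.

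Egr2, a zinc finger factor of the early growth response family, was at 16.1, 6.55 and 15.7 CPM in WT and 6.23, 6.78 and 7.39 CPM in KO at 0. At 60 its levels were 36.7, 28.2 and 82.1 CPM in WT and 116, 72.8 and 176 CPM in KO. The KO level exceeded the WT level of the same number at 60 in all 3 numbers, but the KO library of 414 lay below the WT library of 6110. The double differences were 2.95, 1.31 and 2.13, and the group-mean value was 2.21 ± 0.59 (SE), with an adjusted p of 0.0276 in limma within numbers. Egr2 overlaps the annotated transcript Gm32255. Egr3 and Egr1, of the same family, had double differences of 1.80, 0.79 and 1.15 and 0.97, 0.96 and 1.22, without overlap of the responses.

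Nr4a1, an orphan nuclear receptor, was at 169, 64.2 and 153 CPM in WT and 154, 119 and 67.9 CPM in KO at 0. Its levels at 60 were 369, 146 and 829.6 CPM in WT and 1537, 875 and 1446 CPM in KO, with no overlap. The double differences lay close together at 2.19, 1.69 and 1.96, with an adjusted p of 0.0153 in limma within numbers. Nr4a2 and Nr4a3, its paralogs, had double differences of 2.01, 2.27 and 0.94 and of 2.41, 0.88 and 1.94. LOC105244150, which overlaps Nr4a2, reached only 10.3 to 16.3 CPM in KO at 60, below each WT library at 60, and its double differences of 1.91, 1.89 and 1.05 came from still lower KO levels at 0. Atf3, a stress-induced leucine zipper factor, had levels at 60 of 9.50, 9.48 and 60.1 CPM in WT and 83.7, 64.4 and 113 CPM in KO, and double differences of 2.29, 1.98 and 1.40. Fos and Fosb, partners of Jun proteins in AP-1, had smaller ones, 0.63, 0.74 and 1.02 for Fos and 1.09, 0.75 and 1.49 for Fosb. Junb, another AP-1 subunit, responded by 0.56, -0.32 and 0.33 in WT and 0.90, 0.77 and 1.45 in KO.

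The list of MAPK feedback inhibitors, phosphatases and adaptors that damp MAP kinases, had 10 of 15 tested members above 0, a median double difference of 0.62, and 5 members with all KO responses above all WT responses (4.42% of all genes tested). Without 4120 the median was 0.41. Spry1, of the Sprouty inhibitors, had levels at 60 of 1.26, 0.636 and 2.85 CPM in WT and 4.68, 3.49 and 4.07 CPM in KO, and double differences of 1.39, 2.05 and 1.04. Dusp4, a nuclear MAPK phosphatase, had double differences of 1.86, 0.73 and 0.68, and Dusp1 and Dusp6, other phosphatases of the family, had group-mean values of 0.82 and 0.70, which ran from 0.43 to 1.43 and from -0.041 to 1.24 with 1 library left out. Dusp2, of the same family, had only 3, 0 and 6 counts in KO at 0, so its fitted value of 2.27 rests on few counts and ran from 0.24 to 2.58 over the other methods and settings. The MAPK cascade kinases themselves had a median of 0.10, which was -0.024 with library size alone. Map3k8, also called Tpl2, which activates MEK downstream of NF-kB p105, had the highest value in that list, with levels at 60 of 7.70, 5.83 and 18.8 CPM in WT and 40.8, 43.4 and 35.0 CPM in KO from under 2 CPM in every library at 0. Its group-mean double difference was 2.32 ± 0.57 (SE), with an unadjusted p of 0.000974 in edgeR. Within numbers it was 2.81, 3.43 and 0.85, and Map3k8 rose in both WT (adjusted p 0.00837 in edgeR) and KO (adjusted p 4.04e-05 in edgeR). Trib1, a pseudokinase that recruits a ubiquitin ligase, had double differences of 2.07, 1.56 and 1.71 and levels at 60 of 7.27, 10.6 and 22.1 CPM in WT and 24.8, 17.5 and 35.6 CPM in KO.

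Inhibitors of NF-kB had a lower median, 0.23 over 15 genes, of which 11 were above 0. It was 0.069 with library size alone, 0.12 without 4120, 0.12 without 414 and 0.40 without 6110. Nfkbid, a nuclear IkB protein, had the highest value among them. It was at 30.4, 27.6 and 41.8 CPM in WT and 19.1, 22.7 and 20.1 CPM in KO at 0, so that each KO library began below each WT library. At 60 it was at 86.2, 83.5 and 320.3 CPM in WT and 417, 287 and 461 CPM in KO, and the WT library of 6110 was above the KO library of 414. The double differences were 2.92, 2.05 and 1.57, and limma within numbers gave an adjusted p of 0.0157. Nfkbia, the IkB alpha protein that retains NF-kB in the cytoplasm, had double differences of 1.41, 1.63 and 0.87, and Nfkbiz, of the nuclear kind, 1.14, 1.69 and -0.25. Tnfaip3, the deubiquitinase A20, had 0.80, 0.49 and -0.45, above 0 in 2 of 3 numbers. Among NF-kB subunits and targets the median was 0.36 (0.22 with library size alone), with Rel at 0.81, 1.5 and 0.07 and Relb at 0.96, 0.90 and 0.36. Rcan1, an inhibitor of the phosphatase calcineurin, rose to 168, 138 and 301 CPM in KO at 60, against 28.3, 28.9 and 113 CPM in WT, with double differences of 2.21, 1.91 and 1.16. Rcan1 shares its span with the annotated transcripts Gm41498 and Gm46555.

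Promoter windows of 3 of these genes are shown because each holds a match to at least 1 of the motifs AP-1, CRE, NF-kB and CArG. They run from 250 bases before to 50 bases after an annotated start (RefSeq, GRCm38.p6, the assembly that mm10 corresponds to), and capitals mark the matches. Where a gene has several annotated starts, the window with the most matches was taken. Il6 at chr5:30012864-30013163, plus strand, holds an AP-1 match and an NF-kB match.
Il6: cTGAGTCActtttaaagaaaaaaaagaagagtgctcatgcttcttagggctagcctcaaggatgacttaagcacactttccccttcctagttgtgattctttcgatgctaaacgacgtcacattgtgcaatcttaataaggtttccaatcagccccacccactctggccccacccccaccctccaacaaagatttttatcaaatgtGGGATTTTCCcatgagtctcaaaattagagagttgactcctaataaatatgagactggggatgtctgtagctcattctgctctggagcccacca
Nfkbid at chr7:30422156-30422455, plus strand, at 1 of 3 annotated starts, holds 2 NF-kB matches and, downstream of them, a CRE match.
Nfkbid: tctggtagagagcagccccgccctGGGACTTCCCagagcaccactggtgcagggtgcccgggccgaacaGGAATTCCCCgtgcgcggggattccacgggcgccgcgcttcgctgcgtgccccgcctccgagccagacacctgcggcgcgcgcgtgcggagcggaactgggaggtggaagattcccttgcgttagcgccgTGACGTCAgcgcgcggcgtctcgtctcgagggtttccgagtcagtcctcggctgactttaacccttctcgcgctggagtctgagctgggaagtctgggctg
Egr2 at chr10:67537316-67537615, plus strand, at 1 of 5 annotated starts, holds a CArG match, the motif of serum response factor.
Egr2: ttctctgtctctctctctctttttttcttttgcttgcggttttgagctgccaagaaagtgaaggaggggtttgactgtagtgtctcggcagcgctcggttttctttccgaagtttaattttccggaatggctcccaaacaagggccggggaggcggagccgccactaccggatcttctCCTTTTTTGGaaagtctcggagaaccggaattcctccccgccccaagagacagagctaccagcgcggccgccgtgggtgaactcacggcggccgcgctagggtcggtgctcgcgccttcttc
The motifs were searched on both strands as TGANTCA for AP-1, TGACGTCA for CRE, and the NF-kB and CArG consensus. An NF-kB match stood in 4.51% of all 32851 windows, 5.14% of the 15936 windows of genes tested, 8.36% of the 646 windows of genes that rose in the mean response, and 11.3% of the 177 windows of those whose KO responses all lay above the WT responses. In the same order the shares were 1.63%, 1.28%, 2.17% and 4.52% for CArG, 1.79%, 2.68%, 4.95% and 4.52% for CRE, and 7.81%, 5.84%, 7.74% and 8.47% for AP-1. These shares are descriptions and were not tested, and a match is not a site shown to be bound.

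Several enzymes, receptors and growth factors also had a double difference far above 0. Mst1r, the receptor kinase RON for macrophage-stimulating protein, was at 0 to 0.657 CPM in every library at 0 and at 2.26, 4.13 and 12.7 CPM in WT and 11.3, 18.9 and 21.9 CPM in KO at 60. Its group-mean double difference, 3.34 ± 0.95 (SE), rests on 0 to 0.275 CPM in KO at 0, and on the log2(CPM + 0.5) scale it was 2.81, 3.12 and 1.34. Ptgs2, the inducible cyclooxygenase of prostaglandin synthesis, had levels at 60 of 6.10, 8.90 and 15.0 CPM in WT and 41.4, 32.1 and 26.9 CPM in KO, without overlap. Its double differences of 3.07, 2.22 and 0.58 were lowest in 6110. Hbegf, a ligand of the EGF receptor that overlaps the transcript Gm41698, had double differences of 2.27, 1.48 and 1.83. Hdc, which makes histamine from histidine, had 1.43, 1.20 and 1.11, although its response did not pass in KO (adjusted p 0.0798 in edgeR). Phlda1, a pleckstrin homology-like protein, and Osgin2 had responses without overlap and double differences of 1.67, 0.87 and 1.12 and of 1.23, 0.77 and 0.34. Rgs16, which shortens G protein signals, and Olr1, a scavenger receptor, were among the 12 largest rises of the mean response, and their responses overlapped between the genotypes.

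Got1, the cytosolic aspartate aminotransferase of the malate-aspartate shuttle, had the second smallest p of the group-mean test (0.00017, unadjusted, edgeR). It was at 32.9, 27.5 and 23.9 CPM in WT and 23.4, 23.0 and 28.3 CPM in KO at 0. At 60 it was at 37.8, 35.6 and 41.0 CPM in WT and 76.4, 78.4 and 63.6 CPM in KO, so that the genotypes overlapped at 0 and stood apart at 60. The double difference was 1.11 ± 0.23 (SE) from group means and 1.49, 1.38 and 0.39 within numbers. Got1 rose in KO by 1.55 (adjusted p 0.000102 in edgeR), while its WT response of 0.44 did not pass.

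Tagap1, a gene of the T cell activation GTPase-activating family, had a different course. It has a paralog, Tagap, with which reads could be shared. At 0 it was at 72.8, 48.3 and 41.0 CPM in WT and 7.48, 8.15 and 10.0 CPM in KO. At 60 it was at 44.3, 34.5 and 28.8 CPM in WT and 24.8, 23.4 and 31.7 CPM in KO. The KO level was thus far lower at 0, and at 60 the KO library of 6110 lay within the WT range. The WT responses were -0.71, -0.48 and -0.50, all below 0, and the KO responses 1.67, 1.46 and 1.61, all above 0. The double differences, 2.37, 1.94 and 2.11, averaged 2.14 ± 0.22 (SD, n = 3), and limma within numbers gave an adjusted p of 0.00335. KO was lower than WT at 0 by a log2 difference of -2.66 (adjusted p 0.00022 in edgeR), and the difference at 60 was -0.43.

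**Figure D3:**
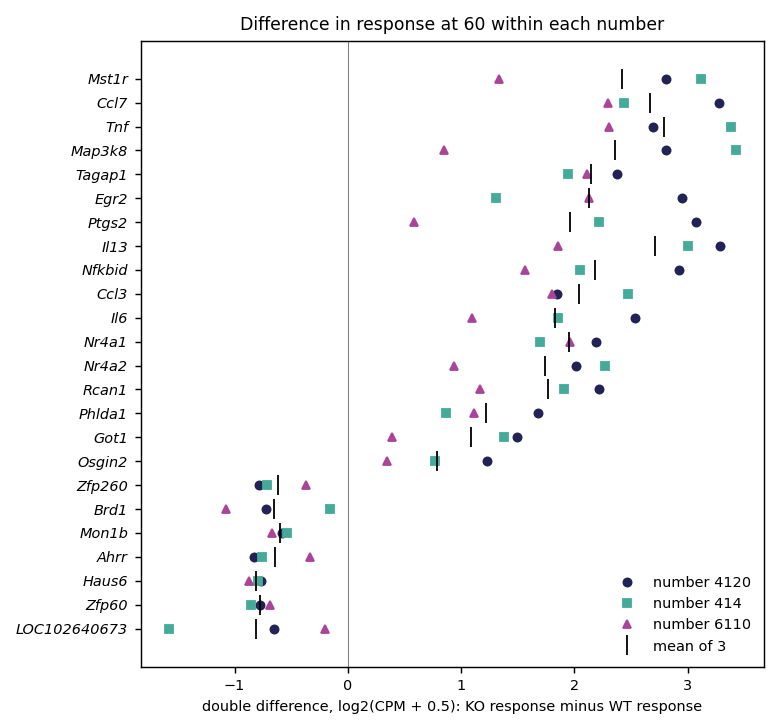
Double difference of log2(CPM + 0.5), KO response minus WT response, for named genes (rows) in each number (symbols), with the mean of 3 as a tick. For the genes in the upper rows all 3 numbers lie above 0, with 6110 often the lowest, and for those in the lower rows all lie below 0.

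A double difference can arise from the level at 0 or at 60, so the KO against WT difference at each level was set beside it. From group means it was 0.16 at 0 and 1.94 at 60 for Il6, and 0.07 and 1.91 for Ccl3. Nearly the whole group-mean double difference of these genes thus lay at 60. At 0 the direction of KO from WT was not the same in each number for either gene, so single numbers can divide otherwise. For Tnf the group-mean KO against WT difference was -1.17 at 0 and 1.54 at 60, and for Egr2 -0.91 and 1.31, with a part at either level. Nr4a2 had the larger part at 0, -1.01, against 0.65 at 60. Of these genes none passed the test between genotypes at 0 or at 60, and Got1, at 0.93 (adjusted p 0.0137 in edgeR), passed at 60.

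**Figure D4:**
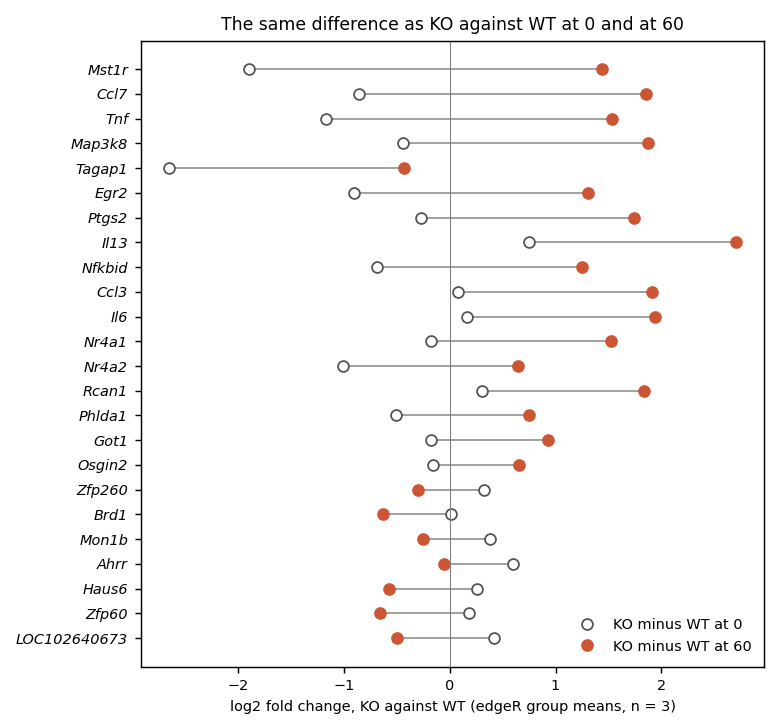
KO against WT log2 fold change at 0 (open) and at 60 (filled) for the same genes, from edgeR group means. The length of each line is the double difference, and for Il6 and Ccl3 the open symbol lies near 0.

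Genes of the integrated stress response, which raises amino acid supply and chaperones through Atf4, had 21 of 22 members above 0 and a median double difference of 0.53, and 8 with all KO responses above all WT responses (4.42% of all genes tested). The median was 0.34 without 414 and 0.79 without 6110. Ppp1r15a, the phosphatase subunit that ends this response, had double differences of 0.84, 1.10 and 0.45, Atf4 itself 0.92, 0.93 and 0.47, Trib3 0.69, 0.84 and 0.29 and Ddit3, which encodes CHOP, 0.31, 0.40 and 0.61. Dnajb1, an HSP40 co-chaperone, went from 60.9 to 71.8 CPM in KO at 0 to 819, 590.2 and 989 CPM at 60, and reached in WT 270.2, 160.3 and 626 CPM, with double differences of 1.62, 0.81 and 1.63. The other heat shock chaperones had smaller values, with a list median of 0.19 (0.030 with library size alone). Srxn1, a sulfiredoxin of the NRF2 response, rose in both genotypes, by 2.1 in WT (adjusted p 0.0136 in edgeR) and 3.32 in KO (adjusted p 7.48e-05 in edgeR), while the NRF2 list had a median of 0.07 (-0.082 with library size alone). Cish, a feedback inhibitor of STAT5 signalling, had double differences of 1.23, 0.70 and 0.46, and Cdkn1a, the cell cycle inhibitor p21, 1.36, 0.73 and 0.77.

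The receptors upstream had medians near that of all genes. The IgE receptor signalling list had a median double difference of 0.11 over 20 genes and the TLR4 complex and adaptors 0.05 over 14. No member of either list passed the edgeR test between 60 and 0 in WT or in KO. Of all genes tested 0.221% passed in WT and 2.54% in KO, shares at which lists of this size may hold none. With library size alone these medians were -0.082 and -0.088, where that of all genes was -0.12. Fcer1a and Ms4a2, the alpha and beta chains of FcεRI, had double differences of -1.04, -0.72 and 0.29 and of -0.64, -0.19 and -0.31. Kit, the stem cell factor receptor, had -0.54, -0.03 and -0.27. The kinases Lyn and Syk, at 0.13 and 0.12 from group means, changed sign under library size alone. Tlr4 had -0.29, -0.22 and -0.07 and its coreceptor Cd14, at 0.269 to 16.8 CPM, had 1.01, -0.03 and 0.83. Glycolysis genes had 20 of 23 members above 0 at a median of 0.18, but their median KO response minus the median WT response was -0.03, -0.12 and 0.45 within the numbers, above 0 in 6110 only, and the median double difference was 0.0081 with library size alone. Mast cell markers had a median of -0.11. For Sirt6 the double difference was -0.06 ± 0.31 (SE).

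**Figure D5:**
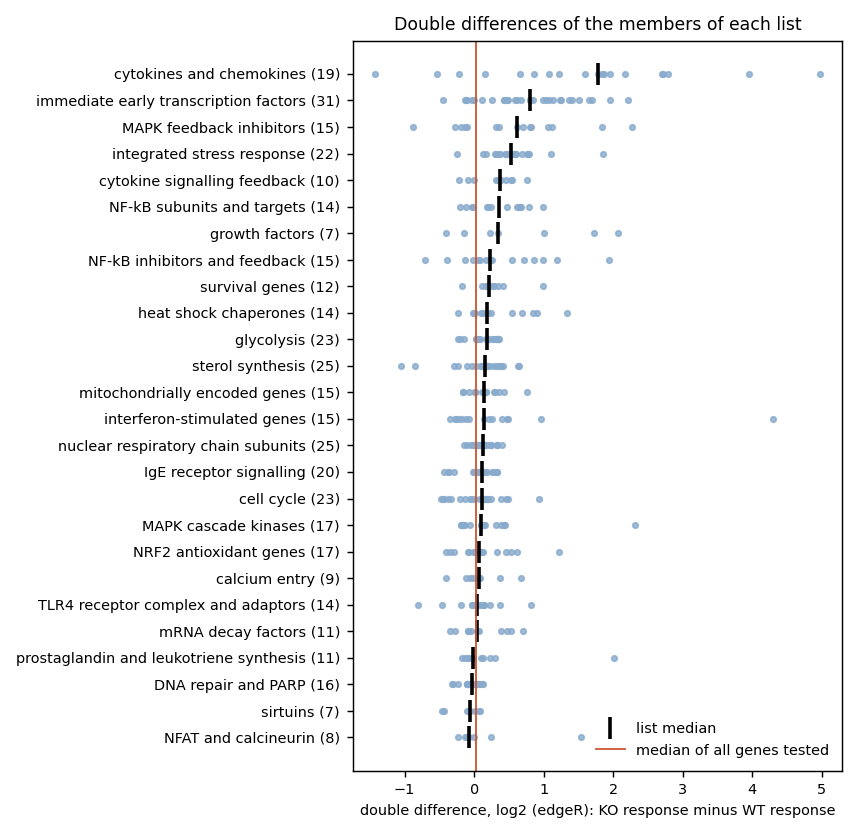
Double differences from edgeR group means for the tested members of each list (points, with the number tested in brackets), the list median (black tick) and the median of all genes tested (red line). The cytokine and immediate early lists have the highest medians, 1.78 and 0.80.

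In the opposite direction the named genes had double differences nearer to 0. Among the 8 genes with the smallest p for a lower KO response was Haus6, an augmin subunit of the mitotic spindle, with double differences of -0.77, -0.80 and -0.88 and levels in KO of 17.9, 18.8 and 17.1 CPM at 0 and 10.0, 9.30 and 8.80 CPM at 60. In WT it stayed at 13.5, 18.7 and 12.6 and then 13.2, 16.4 and 12.2 CPM. Zfp60 and Zfp260, zinc finger genes, had double differences of -0.77, -0.86 and -0.69 and of -0.78, -0.71 and -0.37. Ahrr, the repressor of the aryl hydrocarbon receptor, changed in KO by -0.97 on the log2 scale (adjusted p 0.00287 in edgeR), with double differences of -0.83, -0.76 and -0.34. Mon1b, a vesicle trafficking gene, Brd1, a bromodomain gene, and LOC102640673 had group-mean values of -0.64, -0.64 and -0.92. Gm38495 had counts in 3 of the 12 libraries, 691 and 13 in WT at 60 of 4120 and 6110 and 1024 in KO at 0 of 4120, so no fold is given. Of the 6 genes with the deepest mean fall, 2900052L18Rik had double differences of -1.90, -0.54 and -0.72, all below 0. Gm7428, Gm39648, Gm33582, Nod2 and Zscan30 had overlapping responses, and the direction of Zscan30 turned with the method. Gm7428 overlaps Cpa3, an abundant mast cell protease gene.

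Markers of other cell types were checked beside these lists. Neutrophil markers summed to 4.23 to 9.53 CPM in WT at 0, 6.07 to 19.7 CPM in WT at 60, 10.9 to 52.4 CPM in KO at 0 and 20.3 to 70.2 CPM in KO at 60. Thus they were above WT in every KO library at either level, and Elane, Csf3r and Retnlg were at 0 in the 6 WT libraries. Of the 11 neutrophil genes tested 1 had a double difference above 0, with a median of -0.68 (0.65 without 4120). Macrophage markers summed to 118 to 274 CPM in WT at 0, 127 to 264 CPM in WT at 60, 203 to 308 CPM in KO at 0 and 185 to 352 CPM in KO at 60, with Marco and Msr1 at 0 throughout. Erythroid and megakaryocyte markers had the highest median of the other cell type lists, 0.57 over 6 tested genes of 10, with 5 above 0 and 2 with all KO responses above all WT responses (4.42% of all genes tested). Within numbers the KO minus WT difference of their median responses was 0.42, 0.10 and 0.46, and without 6110 the median double difference was 0.14. Their summed level was 5177 to 5897 CPM in WT at 0, 4190 to 5764 CPM in WT at 60, 2807 to 3743 CPM in KO at 0 and 2837 to 3669 CPM in KO at 60, most of it from Itga2b, an integrin subunit. The haemoglobin gene Hba-a1 and the erythroid factor Klf1 averaged under 1 CPM in each group. Basophil, dendritic cell and T and B cell markers had medians of -0.09 over 7, -0.10 over 5 and -0.43 over 3 tested genes. The basophil sums were 6795 to 21943 CPM in WT and 11048 to 15292 CPM in KO at 0. At 60 they were 6855 to 20956 CPM in WT and 9539 to 16596 CPM in KO. The basophil marker Mcpt8 had 43, 12 and 81 counts in WT and 194, 401 and 73 in KO at 0. At 60 it had 85, 22 and 117 counts in WT and 128, 559 and 158 in KO. In bulk RNA, more cells of a type and more RNA per cell cannot be told apart, and the part of such cells in the cytokine values was not tested.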

How the data were processed

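Per the labels' protocols, RNA of the cultured mast cells was extracted with Trizol and made into libraries with a TruSeq kit, with no statement on strand. HISAT2 2.1.0, StringTie 2.1.3b, bcl2fastq 2.20.0, FastQC 0.11.7 and the mm10 build are named in the submitters' processing notes. The authors deposited 1 table of 45777 genes with, per the file headers, an unnormalized read count, an FPKM and a TPM per library. Tests used the deposited counts, and both deposited normalized units, FPKM and TPM, entered alternatives on a log2(value + 1) scale. Of the gene IDs 99.8% matched the RefSeq annotation of GRCm38, which gave positions, biotypes and overlaps.

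Genes were kept by filterByExpr and scaled with TMM factors in edgeR 4.0.16 under R 4.3.3. The quasi-likelihood fit took all 18 libraries with a mean for each group, so that the 6 groups share the estimate of spread, and a Benjamini-Hochberg adjusted p under 0.05 was called. Responses within a genotype and number are differences of log2(CPM + 0.5). A response here is 60 minus 0 within a genotype and number, and a value described as below or above refers to 3 responses against 3. In such a design an exact permutation test over the 20 splits of 6 responses can give no p under 0.1. Within numbers, the 3 double differences of log2 CPM with a prior count of 2 were tested in limma 3.58.1, with a spread that follows the mean level. DESeq2 1.42.0 and further settings were alternatives. Fits and calls were also run on simulated counts. These were drawn independently for each library, without an effect of number, alone or together with genotype. They do not bear on such effects in the data. Counts of different libraries of a group differed by more than sampling noise, so none was taken as the same library sequenced again. This does not show whether the libraries came from separate mice or separate RNA.

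Named genes were the 8 smallest p in each direction with at least 5 CPM in a group, the leading genes and 2 smallest p of each of 33 lists, Sirt6 and Lyz2, the 12 largest rises and the 6 largest falls of the mean response. From the lists only part of these is described. The members and lists were chosen with earlier results of these data known. The totals leave a count of 3 at no more than 0.150 CPM.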

Additional observations from a re-analysis of the deposited data

Results flagged for a closer look

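Tagap1 stood out because the genotypes moved in opposite directions. In all 3 numbers its level was lower at 60 than at 0 in WT and higher in KO. The group-mean double difference was 2.23. DESeq2 and limma within numbers called this difference, with adjusted p of 0.00157 and 0.00335, and edgeR's quasi-likelihood test did not, with an adjusted p of 0.711.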

How the results depend on the processing

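The group-mean test of the double difference called 0 genes in edgeR under each scaling, filter, threshold and left-out library or number tried, as did limma-voom, and DESeq2 called 2. With the number as a replicate block edgeR called 0, and with genotype and number together as a replicate block 0 (smallest adjusted p 0.114). But limma on the 3 double differences called 14. The numbers were not taken to pair the libraries, because not every same-number pair correlated over 0.1 in its deviations from the group means: 10 of 12 did, at 0.18 to 0.71, and the other 2 were at 0.02 (WT at 0 and at 60 in 4120) and -0.02 (WT and KO at 0 in 414). A library correlated best with its own number in 20 of 24 comparisons with another group, which is a hint from the data and not from the design. The settings of the test within numbers were varied after seeing the data: it called 57 genes with library size alone (32 with a higher and 25 with a lower KO response), 31 with at least 5 CPM in a group, 0 without a trend of the spread, and 17 to 34 with 1 number left out, with 2 to 10 of them lower in KO. The responses of single genotypes depended more on the settings. WT calls were 258 in DESeq2, 4 with library size alone and 0 in the 12 libraries only. They were 206 with the number and 478 with genotype and number together as replicate block. With 1 library left out they were 0 to 73, and 0 without the WT library of 6110 at 60. KO calls were 967, 163, 220, 1094 and 1832 under those settings, and 174 to 360 with 1 library left out. Mean response calls were 1750, 571 (283 higher and 288 lower), 620, 2058 and 3145, and 568 to 1488. The median double difference of genes that rose in the mean response ran from 0.26 (library size alone) to 0.48, and that of genes that fell was -0.34 with library size alone.

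Values near 0 turned sign. Zscan30 had 0.56 in limma-voom, 0.61 with genotype and number together as a random effect and 0.10 with both together as replicate block. It had 0.32 over 3 double differences, 0.39 from TPM, 0.41 from FPKM and 0.24 with the mitochondrial covariate. Syk had -0.039 with library size alone, -0.071 from TPM and -0.063 from FPKM, and Lyn had -0.089, -0.071 and -0.071. With library size alone, where the median of all genes was -0.12, list medians turned to -0.024 for MAPK cascade kinases, -0.0018 for sterol synthesis and -0.082 for IgE receptor signalling. They turned to -0.088 for TLR4 and its adaptors, -0.13 for calcium entry, -0.092 for mRNA decay factors and -0.082 for NRF2 genes. They were -0.071 for the cell cycle, -0.066 for mitochondrially encoded genes and -0.023 for nuclear respiratory chain subunits. With the mitochondrial covariate medians turned to -0.075 for macrophage markers, -0.0053 for mRNA decay factors and -0.018 for calcium entry. With genotype and number together as replicate block they turned to -0.61 for mitochondrially encoded genes (-0.11 over 3 double differences), 0.028 for dendritic cell markers and -0.011 for all genes. In DESeq2 prostaglandin and leukotriene synthesis turned to 0.0074. With 1 library or number left out the ranges were -0.041 to 1.24 for Dusp6, -0.70 to 2.06 for Rgs16, -1.80 to 2.08 for Olr1, -0.71 to 0.70 for Zscan30, -0.72 to 0.27 for Nod2, -0.075 to 0.27 for Syk, -0.18 to 0.35 for Lyn, -0.41 to 0.034 for Tlr4, -0.13 to 1.28 for Cd14, -0.20 to 0.17 for Sirt6, -0.033 to 0.66 for Tnfaip3, -0.059 to 0.11 for the median of MAPK cascade kinases, -0.16 to 0.63 for the median of macrophage markers, -0.097 to 0.077 for that of TLR4 and its adaptors, -0.089 to 0.17 for that of NRF2 genes, -1.82 to 0.65 for the median of neutrophil markers and -0.44 to 0.24 for the median of T and B cell markers. With 1 number left out, medians also turned for mRNA decay factors, NFAT and calcineurin, growth factors, calcium entry, prostaglandin and leukotriene synthesis, DNA repair, sirtuins, mitochondrially encoded genes, nuclear respiratory chain subunits, basophil markers and dendritic cell markers. The cause of these changes was not tested. Alternatives were run for 76 single genes, and those of them not listed here kept the sign of their double difference under every alternative. Other genes that meet the naming rules were not run. The list of mitochondrially encoded genes has no value when those genes are left out.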

Other observations

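Several lists of survival and metabolic genes had small double differences. Survival genes of the BCL2 family and their relatives were above 0 in 11 of 12 cases, with a median of 0.21 (0.11 with library size alone), and sterol synthesis genes in 19 of 25, with a median of 0.16 (-0.0018 with library size alone). Nuclear respiratory chain subunits were above 0 in 20 of 25 cases from group means, with a median of 0.13, but their median KO response minus the median WT response was -0.33, -0.12 and 0.60 in 4120, 414 and 6110, and the median double difference was -0.023 with library size alone and -0.10 without 6110. The 7 sirtuins had a median of -0.06 and DNA repair and PARP genes a median of -0.03. None of these genes passed the edgeR test of the double difference.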
